A study of Mus musculus with 18 samples.

Results

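Genes of the acute cytokine response and of its feedback control were followed in the mouse kidney. These were the 10 rows of the expression table whose gene symbol was Il6, Il1b, Tnf, Socs3, Nfkbia, Nfkbiz, Tnfaip3, Zfp36, Icam1 or Bcl3, and each symbol matched 1 row. They stood among 32675 genes listed, and all 10 were among the 19946 genes that passed the filter on low counts. Bulk RNA sequencing was performed on right kidneys of 18 male C57BL/6 mice, 6 in each of 3 groups. The Ctrl mice were handled daily and were not defeated. The C57BL/6 mice were obtained at 6 weeks of age and acclimatized before the experiment. The PBS group and the FLX group were attacked by a CD-1 mouse for 10 min on each of 14 days. This is chronic social defeat stress (CSDS), a mouse model of depression. During CSDS the FLX mice were injected daily with fluoxetine, a serotonin reuptake inhibitor, at 10 mg/kg, and the PBS mice with the same volume of phosphate-buffered saline. The methods describe no injection of the Ctrl mice, so that defeat and injection cannot be told apart in comparisons with Ctrl. No group received fluoxetine without defeat. Attacks can wound a mouse, and whether wounds or CSDS itself went with the values below was not tested.

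NF-kB is a family of transcription factors held in the cytoplasm by IkB proteins. Tumour necrosis factor, interleukin-1 and microbial products activate the IKK kinase, which marks IkBα for degradation, and NF-kB then enters the nucleus and switches on cytokines, adhesion molecules and its own inhibitors. Among these inhibitors, Nfkbia encodes IkBα itself and Tnfaip3 encodes the ubiquitin-editing enzyme A20. Nfkbiz and Bcl3 encode atypical IkB proteins of the nucleus, which are not simply inhibitors. Interleukin-6 acts through JAK kinases and STAT3, which induces Socs3, an inhibitor of the same receptor complex. Zfp36 encodes tristetraprolin, which binds AU-rich elements in messenger RNAs such as that of Tnf and speeds their decay. Nfkbia is also a known target of glucocorticoids, the adrenal hormones released under stress.

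The promoters of 9 members were found in RefSeq (GRCm38.p6, 250 bases before to 50 bases after each start, 2 promoters for Tnfaip3). The consensus NF-kB site, searched on both strands, was present in 4 of these 10 promoters, against 4.51% of all 32851 promoters and 5.22% of 16741 promoters of genes tested. The stretches of 2 members are shown here because Nfkbia was the member whose PBS and Ctrl groups did not overlap and Il6 is the classical cytokine target. Capitals mark the NF-kB match.
Il6, chr5:30013050-30013099, + strand: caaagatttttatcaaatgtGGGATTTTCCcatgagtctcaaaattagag
Nfkbia, chr12:55492648-55492696, - strand: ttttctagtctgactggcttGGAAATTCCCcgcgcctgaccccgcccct
The Il6 match begins 44 bases before the start and the Nfkbia match 29 bases before it. One Tnfaip3 promoter held 2 matches, at 125 and 12 bases before the start, and the Bcl3 match lay 2 bases after it. The STAT site TTCNNNGAA, which reads the same on both strands, was present in 3 of the 10 promoters, those of Zfp36, Icam1 and Socs3, against 8.30% of all promoters. A match is a description of the letters and does not show that a factor was bound. The members were picked as genes of these pathways, so their share of sites is no independent evidence.

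The 3′ UTRs of the members were searched for the AU-rich heptamer TATTTAT in the GENCODE annotation (GRCm38, 1 transcript a gene). This motif was added after values had been seen. It was present in 8 of the 10 members, against 26.2% of 20643 protein-coding genes, and 7 members held 2 or more, against 9.62%. Since the members were picked as cytokine and feedback genes, this share is a description and no independent evidence. Tnf held 8 copies in 764 bases of 3′ UTR, and Il1b and Zfp36 held 3 each, in 459 and 774 bases. No copy was found in the 3′ UTRs of Nfkbiz and Bcl3. The densest 30-base window of 5 members is given, with the heptamers in capitals.
Tnf, chr17:35199678-35199707, - strand: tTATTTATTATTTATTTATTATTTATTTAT
Il1b, chr2:129364802-129364831, - strand: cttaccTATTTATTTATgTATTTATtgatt
Socs3, chr11:117966136-117966165, - strand: ttgcacataTATTTATATTTATactcagaa
Zfp36, chr7:28376958-28376987, - strand: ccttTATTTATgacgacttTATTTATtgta
Nfkbia, chr12:55489608-55489637, - strand: aggaccacgtttTATTTATtgtgcttttga
The windows of Tnf, Il1b and Socs3 hold overlapping copies, and that of Nfkbia holds a single one. Zfp36 itself, whose product is known to bind such elements, thus stands in this list beside transcripts that hold them.

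Total counts were between 72149987 and 79061296 in 14 of the mice and between 48928823 and 52073640 in FLX replicates 3 to 6. One mouse stood apart for these genes. PBS replicate 6 had the highest level of 4 members among all 18 mice (Socs3, Nfkbiz, Tnfaip3 and Icam1) and the lowest of Il1b. The study removed a PBS mouse, which its text does not name, because of its inflammatory genes. Leaving out a mouse for such genes would choose samples by the outcome studied here. All 18 mice therefore enter the first value, and the value over 17 mice, without PBS replicate 6, stands beside it. In the kidney epithelium list, all 9 markers were above 0 in every mouse.

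Zfp36 and Nfkbia were the most abundant members, with means over 18 mice of 19.2 and 16.6 FPKM (fragments per kilobase of transcript, scaled to the size of the library), at percentiles 88.9 and 87.3 of the genes tested. Icam1, an adhesion molecule that captures leukocytes on endothelium, followed with 4.68 FPKM, and Socs3 with 2.87. Nfkbiz (1.96 FPKM), Bcl3 (1.93) and Il1b (1.12) lay near the middle of the genes tested. Tnfaip3 was at 0.696 FPKM and Tnf at 0.160. Il6 was at 0.0325 FPKM, at percentile 2.35. Thus Socs3, Nfkbia, Nfkbiz, Tnfaip3, Zfp36 and Bcl3 were measured on 157 to 13389 counts a mouse, whereas Il6 had 0 to 19. Within groups, Socs3 was the most variable member, with an SD of 1.05 on log2(FPKM + 0.1), at percentile 97.6 of the genes tested. Without PBS replicate 6 this SD was 0.70, at percentile 92.4. The SD of Icam1 went from 0.33 to 0.20, from percentile 57.5 to 31.3.

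**Figure D1:**
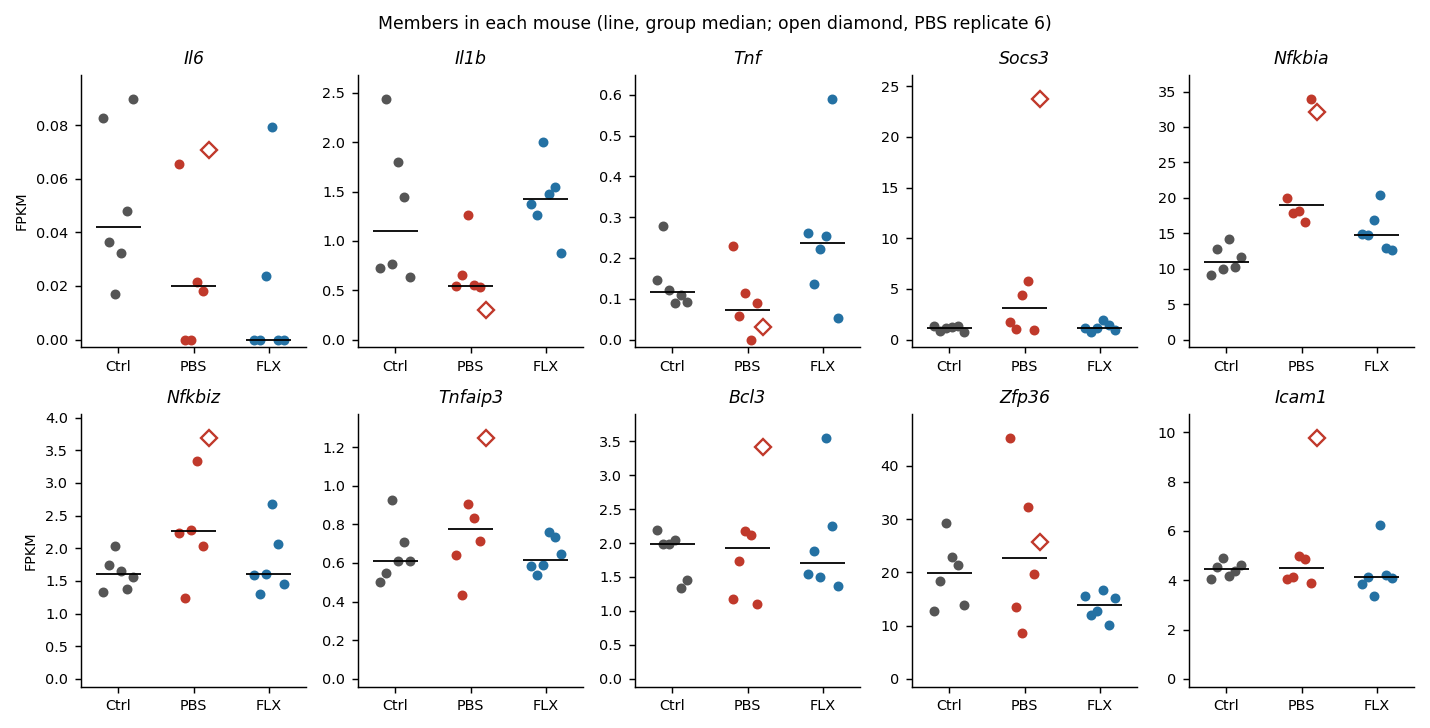
FPKM (y axis, linear, from 0) of each member in each mouse of the Ctrl, PBS and FLX groups, with a line at the group median and PBS replicate 6 as an open diamond. The PBS mice lie above every Ctrl mouse for Nfkbia only, and PBS replicate 6 lies far above the other mice for Socs3 (23.8 FPKM) and Icam1 (9.78 FPKM).

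The first comparison, PBS versus Ctrl, asks what CSDS together with saline injection changes in the kidney. Nfkbia and Socs3 rose in the PBS group, and no member fell at the same threshold. These 2 of 10 members passed an adjusted p under 0.05 in edgeR's quasi-likelihood test, against 4.28% of the 19946 genes tested. Il1b was among 3 members past the study's threshold (absolute log2 fold change over 1 and unadjusted p under 0.05), which 3.77% of genes passed, and it was the 1 member on the lower side. At an unadjusted p under 0.05 there were 4 members, with Nfkbiz as the fourth, against 19.8% of genes. The median log2 fold change of the members was 0.26, against -0.0013 for all genes tested, and over 17 mice it was 0.06 against -0.0078. In the 17 mice, Nfkbia was the 1 member called, against 3.81% of 20251 genes, and Socs3 the 1 member past the study's threshold, against 3.28%. The genome-wide split of 489 higher and 364 lower genes became 356 and 497 when counts were scaled by upper quartiles, and 399 and 435 with limma on log2(FPKM + 0.1).

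Nfkbia separated the groups without overlap. It lay between 9.06 and 14.1 FPKM in the Ctrl mice (median 10.9, n = 6) and between 16.5 and 34.0 in the PBS mice (median 19.0, n = 6). All 6 PBS mice were above every Ctrl mouse, which held for 1.34% of the genes tested (ranges without overlap in either direction for 2.75%), and PBS replicates 5 and 6 were the highest with 34.0 and 32.0 FPKM. Mean FPKM rose from 11.3 ± 1.93 to 23.1 ± 7.80 (SD, n = 6 each). The fold change fitted by edgeR to the counts was 2.02, or 1.01 on the log2 scale (SE 0.17, adjusted p = 0.00336). The exact two-sided permutation test of log2(FPKM + 0.1) gave p = 0.00216, the smallest that 6 against 6 mice can give. Over 17 mice the log2 fold change was 0.91 (adjusted p = 0.00514). In bulk tissue, a change in the share of cells that express a gene and a change of RNA per cell cannot be told apart.

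The other IkB family members and A20 differed less. Nfkbiz lay between 1.33 and 2.03 FPKM in the Ctrl mice (median 1.61) and between 1.23 and 3.69 in the PBS mice (median 2.26). In all, 5 of 6 PBS mice were above every Ctrl mouse, and PBS replicate 2 was below every Ctrl mouse. The log2 fold change of 0.61 (SE 0.21) did not pass the adjustment (adjusted p = 0.108), and over 17 mice it was 0.48 (adjusted p = 0.224). Tnfaip3 went from 0.504 to 0.928 FPKM in the Ctrl mice (median 0.609) and from 0.435 to 1.25 in the PBS mice (median 0.775), and the groups overlapped widely. A log2 fold change of 0.29 (95% interval -0.11 to 0.69) was estimated for Tnfaip3. For Bcl3 the medians were 1.99 FPKM in Ctrl and 1.93 in PBS, and the interval of the log2 fold change was -0.44 to 0.63. Reads of Bcl3 cannot be told apart from those of 2 overlapping genes of the opposite strand, Gm16175 and Gm16174, since no source used here states the strand setting of the counting.

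Socs3 rose most, but unevenly. It was between 0.755 and 1.37 FPKM in the Ctrl mice (median 1.17, n = 6) and between 0.943 and 23.8 in the PBS mice (median 3.08, n = 6). The 3 high PBS mice were replicates 3, 4 and 6, at 4.44, 5.80 and 23.8 FPKM, while replicates 2 and 5, at 1.01 and 0.943, lay within the Ctrl range. From means of 1.11 ± 0.249 and 6.28 ± 8.80 FPKM (SD, n = 6 each), edgeR gave a log2 fold change of 2.47 (SE 0.60, adjusted p = 0.0253). The exact permutation test on the log scale gave p = 0.0606 for Socs3. Over 17 mice the log2 fold change was 1.34 (adjusted p = 0.0693), so that the call rested on PBS replicate 6. It was also lost when any 1 of Ctrl replicates 1, 2, 4, 5 and 6 was left out, with adjusted p from 0.0512 to 0.0638, while the log2 fold change stayed between 2.38 and 2.56.

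The neutrophil markers were set beside Socs3 in the same mice. Their summed level (11 genes) was 1.56 to 3.56 FPKM in the Ctrl mice, 7.40 to 67.2 in the PBS mice and 0.514 to 5.92 in the FLX mice. The 3 PBS mice with the highest Socs3 also had the highest neutrophil sums, 16.5, 26.5 and 67.2 FPKM for replicates 3, 4 and 6. Replicates 2 and 5, whose Socs3 lay within the Ctrl range, had sums of 7.40 and 8.61 FPKM, above every Ctrl and FLX mouse. Whether the sums went with Socs3 from mouse to mouse was not tested. Of 8 markers tested, 4 were called higher in PBS than in Ctrl (S100a8, S100a9, Ngp and Retnlg), and 3 over 17 mice. Of all genes tested, 4.28% and 3.81% were called in either direction. Levels were low, and the defining marker Ly6g was at 0 in 14 of the 18 mice, Camp in 11 and Ngp in 9. The sum for T cells was 2.498 to 5.31 FPKM in Ctrl and 2.23 to 4.31 in PBS, and that for B cells 0.610 to 2.43 and 0.619 to 1.45. The endothelial sum was 24.7 to 37.0 FPKM in Ctrl, 22.6 to 56.5 in PBS and 32.8 to 50.0 in FLX. A list of fat markers varied within groups, from 10.8 to 105 FPKM in Ctrl, from 20.1 to 811 in PBS and from 19.4 to 545 in FLX. The highest fat sum was that of PBS replicate 5, the mouse with the highest Nfkbia. The part of these cells in the members' values was not tested.

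None of the 3 cytokine genes was called by edgeR in PBS versus Ctrl over 18 mice, and their estimates lay below 0. Il1b was between 0.633 and 2.44 FPKM in the Ctrl mice (median 1.104, n = 6) and between 0.301 and 1.26 in the PBS mice (median 0.547, n = 6). The Il1b level of 4 of 6 PBS mice was below that of every Ctrl mouse, PBS replicate 6 being the lowest of all, and replicate 3 was the highest of its group. A log2 fold change of -1.03 (SE 0.36) was estimated, with an adjusted p of 0.108 and an exact permutation p of 0.0498. Over 17 mice it was -0.88 (adjusted p = 0.185). Il1b was called lower by DESeq2 (adjusted p = 0.0435) and by edgeR without PBS replicate 3 (-1.32, adjusted p = 0.0360). The macrophage and monocyte markers, cells known to make interleukin-1β, summed to 69.0 to 89.98 FPKM in Ctrl and 75.0 to 110 in PBS, with no marker called in either direction. An antisense gene, Il1bos, overlaps Il1b on the opposite strand.

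Tnf and Il6 were near the limit of detection. Tnf was between 0.0892 and 0.277 FPKM in the Ctrl mice, with counts of 13 to 39, and between 0 and 0.230 in the PBS mice, with counts of 0 to 33. For Tnf, 3 PBS mice were below every Ctrl mouse, and the 95% interval of the log2 fold change was -2.08 to 0.72. Il6 was between 0.0169 and 0.0899 FPKM in Ctrl and between 0 and 0.0707 in PBS. It had no count in 2 PBS mice, where 3 counts would be 0.0389 and 0.0404 CPM (counts scaled to the total of the library). A limit of 3 for a count of 0 holds for single fragments only, and these counts were taken as estimates. The interval of the log2 fold change of Il6, -2.99 to 1.47, includes a 2-fold difference in either direction. Its width holds the spread between mice as well as the low counts.

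Zfp36 and Icam1 differed between PBS and Ctrl by less than the spread between mice. Zfp36 ranged from 12.7 to 29.3 FPKM in the Ctrl mice and from 8.66 to 45.3 in the PBS mice, where replicates 1 and 4 were high with 45.3 and 32.2. An interval of -0.32 to 0.94 was obtained for its log2 fold change. Icam1 was within 4.03 to 4.89 FPKM in all 6 Ctrl mice. In PBS, 5 mice were within 3.90 to 4.98 FPKM and replicate 6 was at 9.78. The log2 fold change of 0.24 (adjusted p = 0.486) therefore became -0.0076 over 17 mice (adjusted p = 0.983). Genes of the opposite strand, Gm44710 and Gm47079, overlap Zfp36 and Icam1.

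**Figure D2:**
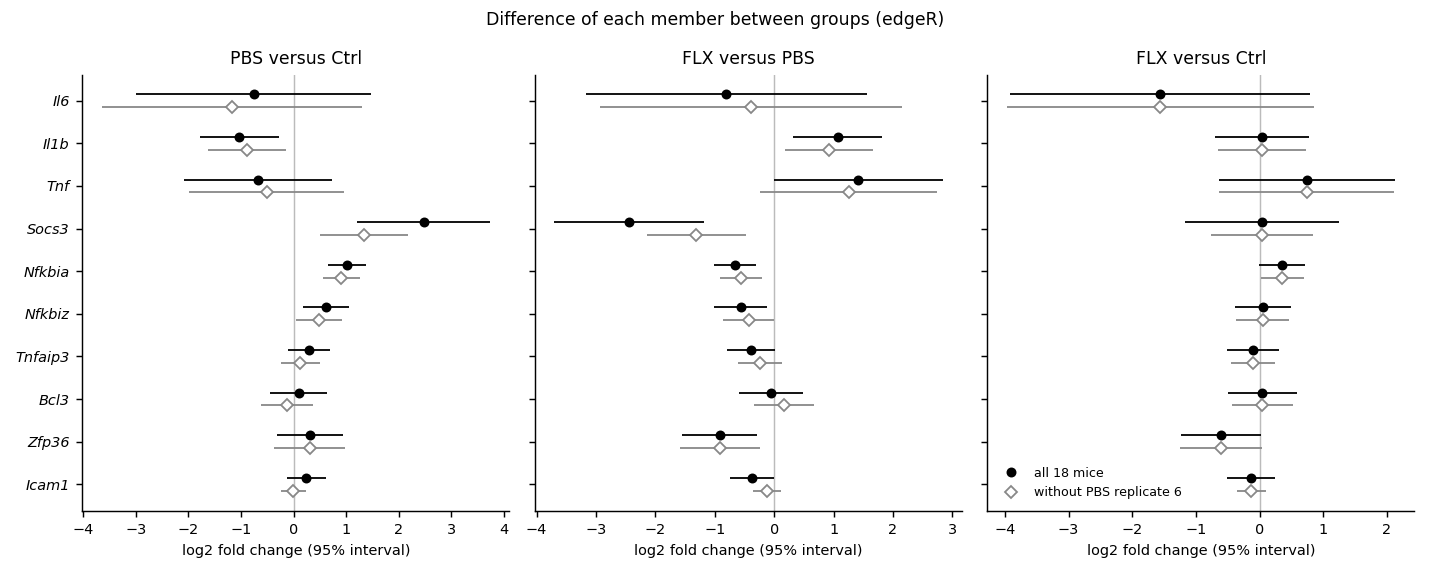
Log2 fold change (x axis) of each member with its 95% interval from edgeR in the 3 comparisons, over all 18 mice (filled) and over 17 mice without PBS replicate 6 (open diamonds). Nfkbia and Socs3 lie above 0 in PBS versus Ctrl and below 0 in FLX versus PBS, Il1b lies the other way, and the estimates of Il1b, Socs3, Nfkbiz and Bcl3 lie within 0.05 of 0 in FLX versus Ctrl.

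FLX versus PBS asks what fluoxetine changes under CSDS. These 2 comparisons share the PBS mice, so that a high or low PBS value enters both with opposite sign. No member passed an adjusted p under 0.05 with edgeR, which 0.557% of 19946 genes did, and none passed with limma on log2(FPKM + 0.1), while DESeq2 called Socs3, Nfkbia and Zfp36 lower. At an unadjusted p under 0.05 there were 7 of 10 members, against 12.2% of genes, with Il1b and Tnf on the higher side and Socs3, Nfkbia, Nfkbiz, Zfp36 and Icam1 on the lower side. The study's threshold was passed by Il1b, Tnf and Socs3, against 2.28% of genes, and over 17 mice by Socs3 alone, against 1.9%. The median log2 fold change of the members was -0.48, against -0.01 for all genes, and over 17 mice it was -0.31. Over 17 mice, 0 members were called, against 0.726% of 20251 genes, and 4 had an unadjusted p under 0.05 (Il1b, Nfkbia, Socs3 and Zfp36), against 11.1% of genes. Genome-wide, 45 genes were higher and 66 lower, but limma on log2(FPKM + 0.1) gave 199 and 56, and the median of all genes was 0.069 on that scale, which the permutation tests below share.

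Nfkbia was intermediate in the FLX group. The FLX mice lay between 12.6 and 20.3 FPKM (median 14.8, n = 6), and 4 of 6 were below every PBS mouse. With a mean of 15.4 ± 2.88 FPKM (SD, n = 6), the log2 fold change against PBS was -0.66 (SE 0.17, adjusted p = 0.0874, exact permutation p = 0.0303), and over 17 mice -0.56 (adjusted p = 0.154). The adjusted p was between 0.0604 and 0.195 with 1 mouse left out and 0.0149 with DESeq2. Socs3 lay within the Ctrl range in 4 of 6 FLX mice, with values of 0.773 to 1.96 FPKM (median 1.13), against 0.943 to 23.8 in PBS. Its log2 fold change was -2.44 (SE 0.60, adjusted p = 0.0739, exact permutation p = 0.0887). Over 17 mice it was -1.31 (adjusted p = 0.157), and it passed the threshold without PBS replicate 2 (adjusted p = 0.0339) or PBS replicate 5 (0.0317), with 0.169 as the highest adjusted p when 1 mouse was left out.

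Zfp36 was less spread in FLX than in PBS. Values of 10.03 to 16.6 FPKM (median 13.9) in the FLX mice were set against 8.66 to 45.3 (median 22.7) in PBS, and no FLX mouse was above the PBS median. An estimate of -0.92 (SE 0.30, adjusted p = 0.180, exact permutation p = 0.121) was obtained, with -0.91 over 17 mice. Nfkbiz went from 1.29 to 2.68 FPKM in FLX (median 1.60). It differed from PBS by -0.57 on the log2 scale (adjusted p = 0.254, exact permutation p = 0.145). Tnfaip3 went from 0.537 to 0.762 (median 0.618) and differed by -0.39 (adjusted p = 0.426, exact permutation p = 0.284). Icam1 was between 3.36 and 6.25 FPKM in FLX, FLX replicate 4 being the high mouse. The difference of Icam1 was -0.37 (adjusted p = 0.410, exact permutation p = 0.422) and -0.13 over 17 mice. Bcl3, at 1.36 to 3.55 FPKM in FLX, differed by -0.05 over 18 mice and by 0.17 over 17.

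The cytokines Il1b and Tnf lay on the other side. Il1b was between 0.882 and 2.00 FPKM in the FLX mice (median 1.43, n = 6), and 4 of 6 were above every PBS mouse. In 34 of the 36 pairs of a FLX and a PBS mouse the FLX mouse was higher. The log2 fold change was 1.07 (SE 0.36, adjusted p = 0.190), and the exact permutation test of log2(FPKM + 0.1) gave p = 0.00649. Over 17 mice the same values were 0.92 (adjusted p = 0.293) and p = 0.0130 in the exact test. The macrophage and monocyte sum was 54.5 to 166 FPKM in FLX, with no marker called. At an unadjusted p under 0.05 in edgeR, 2 of 10 markers were higher in FLX than in PBS and 0 lower, against 12.2% of all genes. Tnf was between 0.0525 and 0.591 FPKM in FLX (median 0.237) with counts of 6 to 57, and its log2 fold change was 1.42 (95% interval 0.0038 to 2.83, adjusted p = 0.410). Il6 was at 0 in 4 of 6 FLX mice, and the interval of its difference was -3.17 to 1.56. In these 4 mice 3 counts, a limit for single fragments only, would be 0.0379 to 0.0591 CPM. The 2 FLX mice of high depth, replicates 1 and 2, had 1.26 and 1.37 FPKM of Il1b and 14.7 and 14.8 of Nfkbia, inside the ranges of FLX replicates 3 to 6. Both were below that range for Tnfaip3 (0.537 and 0.582 FPKM against 0.591 to 0.762), and 1 of them was below it for Socs3 (0.773 FPKM) and for Nfkbiz (1.29 FPKM). The part of depth in these values was not tested.

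FLX versus Ctrl compares fluoxetine-treated defeated mice with undefeated mice. No member was called by edgeR (1.77% of genes were), DESeq2 or limma, none passed the study's threshold (2.09% of genes), and none had an unadjusted p under 0.05 in edgeR (17.7% of genes). Over 17 mice no member was called either (3.67% of 20251 genes were), and Nfkbia alone had an unadjusted p under 0.05 (20.4% of genes). The genes called rose from 354 to 744 without PBS replicate 6, a mouse of neither group that enters the shared estimate of the spread. No member had FLX and Ctrl ranges without overlap, against 3.44% of genes, and the same held for FLX versus PBS, against 2.04%. Nfkbia was nearest, at 0.35 on the log2 scale (95% interval -0.0065 to 0.72, adjusted p = 0.289), 33 of 36 pairs higher in FLX and an exact permutation p of 0.0130. Over 17 mice its interval was 0.016 to 0.69 (edgeR, adjusted p = 0.222). Nfkbia was above every Ctrl mouse in 4 of 6 FLX mice. For Zfp36 the log2 fold change was -0.61 (95% interval -1.24 to 0.02, edgeR adjusted p = 0.295), with an exact permutation p of 0.0498, which is unadjusted. The intervals of Socs3 (-1.18 to 1.25), Tnf (-0.65 to 2.12) and Il6 (-3.92 to 0.79) include a 2-fold difference in at least 1 direction. Those of Il1b (-0.70 to 0.77), Nfkbiz (-0.40 to 0.49), Tnfaip3 (-0.51 to 0.30), Icam1 (-0.51 to 0.24) and Bcl3 (-0.50 to 0.58) do not. Genome-wide, the 202 higher and 152 lower genes were 145 and 206 under upper-quartile scaling and 576 and 140 with limma on log2(FPKM + 0.1).

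**Figure D3:**
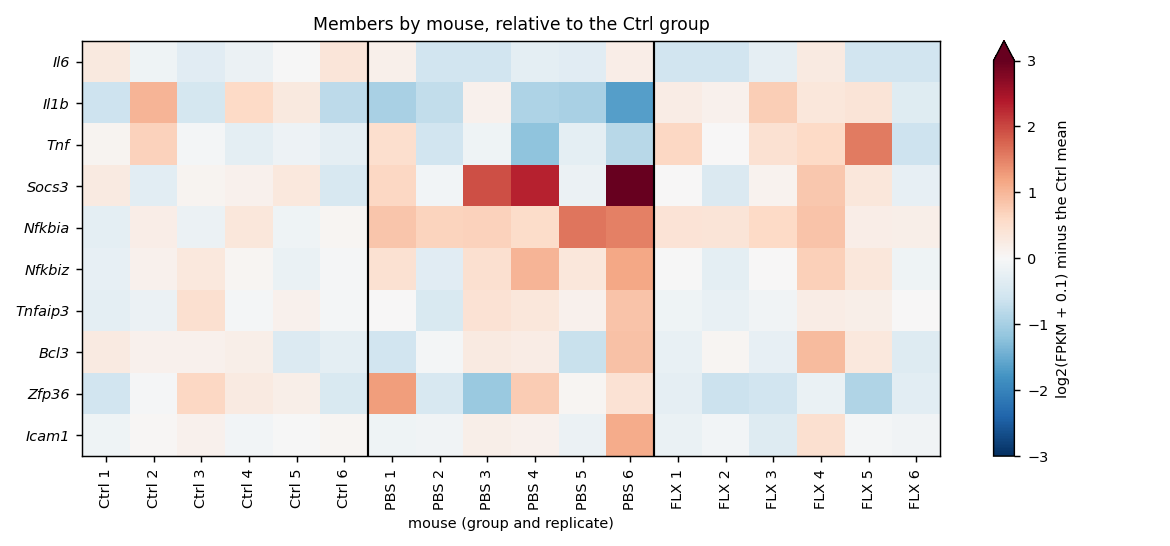
Each member (rows) in each mouse (columns), as log2(FPKM + 0.1) minus the Ctrl mean of that gene (colour, red above and blue below; values over 3 share the darkest red). Nfkbia is above the Ctrl mean in all 12 defeated mice, Socs3 is high in PBS replicates 3, 4 and 6, and Il1b is below the Ctrl mean in 5 of 6 PBS mice.

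Some members varied together from mouse to mouse within groups. After subtraction of each group's mean, 7 of the 45 pairs of members had a Pearson's r past an adjusted p of 0.05 by a permutation test within groups, but no pair did so by Spearman's rho. Nfkbiz and Tnfaip3 had the highest Pearson's r (n = 18, r = 0.82, permutation p = 0.00027, adjusted p = 0.0121, rho = 0.73, permutation p = 0.00196, adjusted p = 0.0569). It was 0.62 without the 2 extreme mice, PBS replicates 2 and 6. Icam1 varied with Socs3 (r = 0.82, permutation p = 0.00259, adjusted p = 0.0233, rho = 0.55, permutation p = 0.0422, adjusted p = 0.190). It also varied with Bcl3 (r = 0.80, permutation p = 0.00125, adjusted p = 0.0223, rho = 0.59, permutation p = 0.0193, adjusted p = 0.124). Without the 2 extreme mice these r values were 0.52 and 0.55. Socs3 also varied with Nfkbiz (r = 0.74, permutation p = 0.00662, adjusted p = 0.0426, rho = 0.63, permutation p = 0.0139, adjusted p = 0.104) and with Tnfaip3 (r = 0.77, permutation p = 0.00382, adjusted p = 0.0286, rho = 0.69, permutation p = 0.00890, adjusted p = 0.0801). Both r values were nearly the same without PBS replicates 5 and 6, at 0.76 and 0.75. The other pairs past the threshold by r were Socs3 and Bcl3, which had the highest rho (0.76, permutation p = 0.00382, adjusted p = 0.0573), and Tnfaip3 and Icam1 (r = 0.72). They were 0.54 and 0.55 without their 2 extreme mice. Over 17 mice all 7 r values were lower, from 0.57 for Tnfaip3 and Icam1 to 0.77 for Nfkbiz and Tnfaip3. Nfkbia stood outside this group, with r from 0.025 to 0.41 to the other 9 members, none past the adjusted threshold. Il1b and Tnf had an r of 0.41 to each other (permutation p = 0.0657, adjusted p = 0.295).

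**Figure D4:**
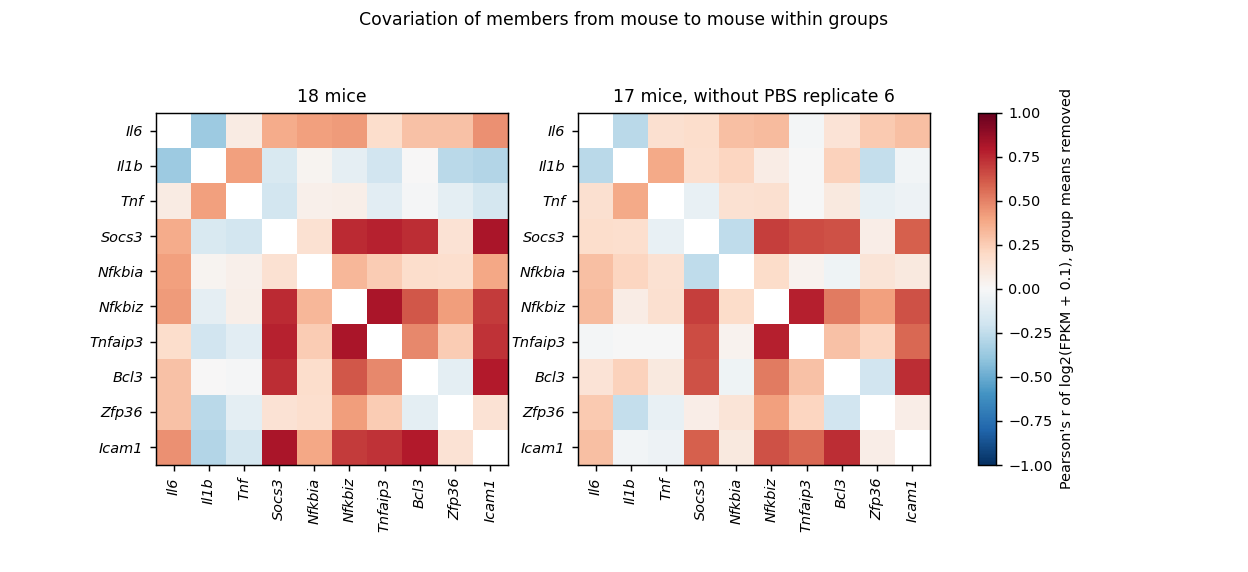
Pearson's r (colour, from -1 to 1) of log2(FPKM + 0.1) between members after removal of group means, over 18 mice (left) and over 17 mice without PBS replicate 6 (right). Socs3, Nfkbiz, Tnfaip3, Bcl3 and Icam1 form the red block, with r = 0.82 for Nfkbiz and Tnfaip3, whereas Nfkbia, Zfp36 and the 3 cytokine genes lie outside it.

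The genes most alike in pattern over the 18 mice, groups included, differed between members. They are described by Pearson's r of log2(FPKM + 0.1) among genes tested, and all points share libraries and groups. Nfkbia was most like Cebpb (r = 0.93), which encodes a transcription factor of the acute-phase response, then Cdkn1a (0.90), a cell cycle inhibitor, and Sgk1 (0.88), a kinase of sodium transport that glucocorticoids and aldosterone are known to induce. Nfkbiz was most like Relb (0.91), a subunit of NF-kB, and Stat3 (0.88), and Relb was also among the 3 genes most like Tnfaip3 (0.86). Zfp36 was most like Junb (0.89) and Egr1 (0.85), which are immediate early genes. Icam1 was most like Tifa (0.94), an adaptor of TRAF proteins, with 0.83 over 17 mice. For Socs3 the closest genes were Serpina3g (0.90), Arpc5 and Gm42793, with 0.79, 0.74 and 0.73 over 17 mice. The closest gene was Serpinb9 (0.87) for Bcl3, Tbxa2r (0.90) for Tnf and Gm10845 (0.84) for Il1b. For Il6, with 0 to 19 counts a mouse, it was Riiad1 (0.88).

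The other genes of the same pathways were counted in lists. Of all genes tested, 4.28% were called in PBS versus Ctrl (3.81% over 17 mice), and 19.8% had an unadjusted p under 0.05 in edgeR. In PBS versus Ctrl, 3 of 17 NF-kB subunits, kinases and adaptors rose and none fell, with a list median of 0.20. The 3 were Rel, which encodes the subunit c-Rel (0.233 ± 0.102 to 0.483 ± 0.173 FPKM, SD, n = 6 each, log2 fold change 1.06, adjusted p = 0.0398), Nfkb2 (0.39, adjusted p = 0.0331) and Ripk1 (0.27, adjusted p = 0.0266). Over 17 mice Ripk1 alone was called. Of 19 other IkB proteins and feedback inhibitors, none was called in either direction (2 at an unadjusted p under 0.05), with Irak3 at 1.02 (adjusted p = 0.0934), Socs2 at 1.16 (adjusted p = 0.126) and Birc3 at 0.44. All 11 genes of the receptor list, which also holds the receptor antagonist Il1rn, had positive estimates, with none called and 6 at an unadjusted p under 0.05, and over 17 mice 2. The lowest p were those of Il1r1 (0.59), Il6ra (0.99) and Il1r2 (2.62), the decoy receptor of interleukin-1. Of 9 other cytokines tested, Tnfsf10, the ligand TRAIL, fell from 8.68 ± 2.88 to 3.80 ± 1.42 FPKM (SD, n = 6 each, log2 fold change -1.18, adjusted p = 0.0188), and none rose. No chemokine of 6 and no endothelial adhesion molecule of 4 was called, with 1 of each at an unadjusted p under 0.05, Cxcl1 (2.22, adjusted p = 0.0831) and Vcam1 (0.57, adjusted p = 0.103).

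The STAT3, immediate early and glucocorticoid lists were counted in the same way, beside the same 4.28% of all genes called (3.81% over 17 mice). Of 15 genes of the STAT3 pathway and the acute-phase response, 8 rose and none fell (median log2 fold change 1.51), and over 17 mice 4 rose (median 0.65). They included Cebpb, from 10.6 ± 1.82 to 28.2 ± 7.78 FPKM (SD, n = 6 each, log2 fold change 1.39, adjusted p = 8.76e-05), Cebpd (2.11) and the fibrinogen gene Fga (3.20). The summed level of this list was 72.5 to 109 FPKM in 5 PBS mice and 795 in PBS replicate 6. Of 14 immediate early genes 3 rose, Atf3 (2.51), Klf6 (1.38) and Maff (2.08). All 10 glucocorticoid-induced genes rose, with a median of 1.62 and a range of sums of 199 to 276 FPKM in Ctrl and 323 to 1340 in PBS, and all 10 were called over 17 mice as well. Per1, a clock gene, was at 2.11 (adjusted p = 8.76e-05) and Zbtb16 at 3.44. The lists were chosen with earlier results of these data known and are no independent evidence of a direction.

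In FLX versus PBS, 0.557% of all genes tested were called, and 12.2% had an unadjusted p under 0.05 in edgeR. Here 2 genes of the STAT3 list fell, Cebpb (-0.91, adjusted p = 0.0107) and Cebpd (-1.68, adjusted p = 0.0282), and Fgg was at -3.58 (adjusted p = 0.110). Of the immediate early genes, Maff fell (-2.28, adjusted p = 0.0295), while Ier2 (-1.20) and Junb (-1.28) did not pass the adjustment. Among the glucocorticoid-induced genes Per1 (-1.33), Mt1 (-1.36) and Mt2 (-2.34) fell. No gene of the other 6 lists was called, and 3 NF-kB subunits had an unadjusted p under 0.05, Nfkb2 (-0.33), Rel (-0.82) and Relb (-0.58). In the feedback list the lowest p were those of Socs2 (-1.38), Tnip1 (-0.36) and Birc3 (-0.56), and in the receptor list Il1r2 was at -2.46 (adjusted p = 0.291). Cxcl1 was at -2.19 (adjusted p = 0.172). The neutrophil marker S100a8 fell by 3.93 on the log2 scale (adjusted p = 0.0275).

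In FLX versus Ctrl, 1.77% of all genes tested were called (3.67% over 17 mice). Of the 10 glucocorticoid-induced genes, 3 were called higher, Tsc22d3 (1.03), Zbtb16 (2.18) and Sgk1 (1.03). Among the adhesion molecules Vcam1 was called higher (0.83, adjusted p = 0.0379), which it was not in PBS versus Ctrl. Its mean was 0.820 FPKM in Ctrl, 1.23 in PBS and 1.56 in FLX. All 6 endothelial markers had positive estimates in FLX versus Ctrl (median 0.51), with 1 called. The part of endothelium in Vcam1 was not tested. No gene of the other 7 pathway lists was called over 18 mice. Over 17 mice Nfkb1 (0.39, adjusted p = 0.0373), Ripk1 (0.25, adjusted p = 0.0400) and Il1r1 (0.55, adjusted p = 0.0330) were called higher and Tnfsf10 lower (-0.69, adjusted p = 0.0233), and Cdkn1a (1.29, adjusted p = 0.00733) became the fourth glucocorticoid-induced gene called higher.

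**Figure D5:**
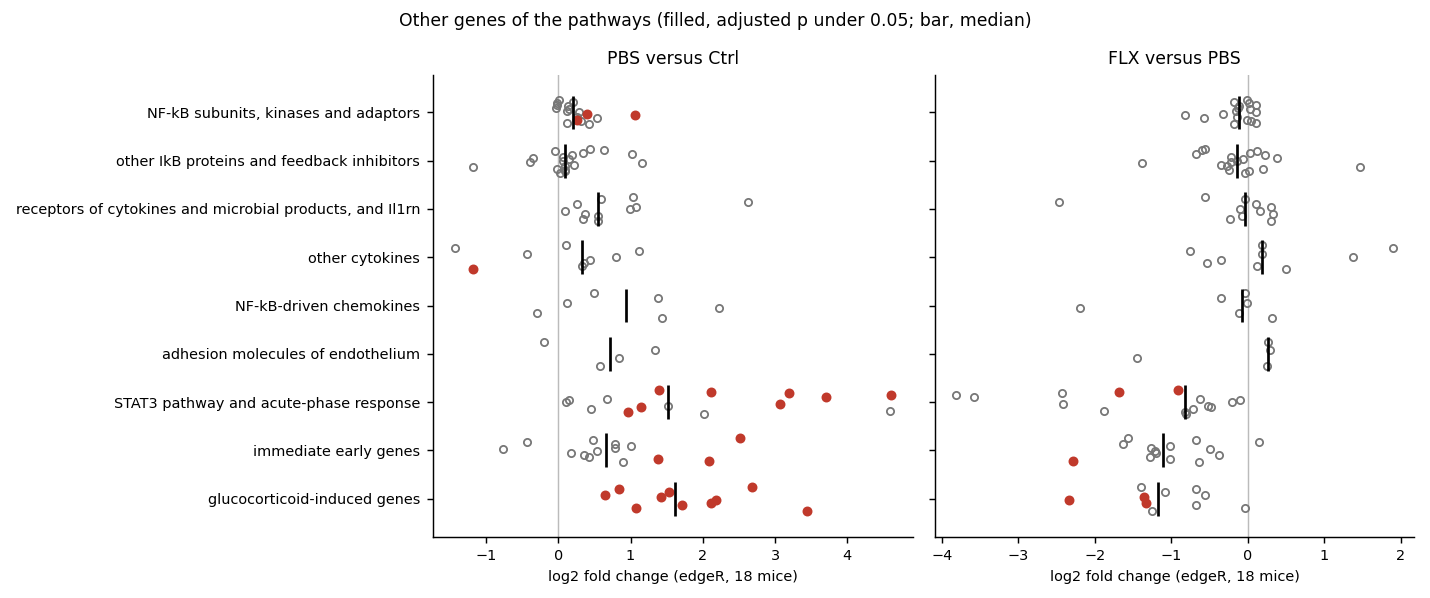
Log2 fold change from edgeR over 18 mice (x axis) of every tested gene of 9 pathway lists in PBS versus Ctrl (left) and FLX versus PBS (right), filled red at an adjusted p under 0.05, with a bar at the list median. All 10 glucocorticoid-induced genes are filled on the right of 0 in PBS versus Ctrl, and none of the 19 other IkB proteins and feedback inhibitors is filled in either panel.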

How the data were processed

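Poly(A) RNA of right kidneys was sequenced in read pairs from stranded libraries. The methods name fastp for cleaning, HISAT-3N for alignment to GRCm38 and StringTie for assembly, while the submitters' processing notes name cutadapt (1.9), HISAT2 (2.0.4), UMI-tools, StringTie (1.3.4d), DESeq2 and edgeR. FPKM values and estimated counts per gene and mouse were deposited by the authors. For the counting, tool and strand setting are not given in the sources used here. All deposited counts were whole, yet a value of 4 (a median of 720 genes a mouse) was more frequent than 3 (484.5) or 5 (268), so that they were taken as estimates and not as single fragments. The 95% intervals of log2 fold changes come from the edgeR fit and include the spread between mice. The limits for a count of 0 cover counting error only and assume single fragments.

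Counts were compared with edgeR's quasi-likelihood test (edgeR 4.0.16, limma 3.58.1, DESeq2 1.42.0, R 4.3.3), with TMM scaling, filterByExpr and 1 model over the 3 groups. Adjustment followed Benjamini and Hochberg over all genes tested, and genes with an adjusted p under 0.05 were called. Difference in mean log2(FPKM + 0.1) of single members was tested by an exact two-sided permutation test (scipy 1.17.1), whose smallest p is 0.00216 for 6 against 6 mice and 0.00433 for 5 against 6. These exact p were not adjusted for the number of members and comparisons. Pairs of members were compared by 100000 permutations of mice within groups. Mice are separate animals, and no 2 columns were identical (0 found). The edgeR, limma and DESeq2 fits were run on simulated data, with set limits to pass for edgeR only. Same-numbered mice were taken as unpaired, since 0, 1 and 1 of 6 pairs had a correlation of deviations over 0.1 in PBS versus Ctrl, FLX versus PBS and FLX versus Ctrl. The members and lists were chosen with earlier results of these data known. All 10 members are named, and from each list the 3 genes of lowest p in PBS versus Ctrl and in FLX versus PBS, with any called gene where 5 or fewer were called. The promoter sites were named in that rule, and the 3′ UTR heptamer was added later. For each member the 3 genes with the highest r were taken.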

Additional observations from a re-analysis of the deposited data

Results flagged for a closer look

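In 6 of 30 combinations of a member and a group, 1 mouse lay far from the other 5 by Dixon's test at the 95% level, which chance flags in about 1 of 20 groups. PBS replicate 6 was far above its group for Socs3 (23.8 FPKM) and for Icam1 (9.78 FPKM). PBS replicate 3 was high for Il1b (1.26 FPKM). FLX replicate 4 was high for Icam1 (6.25 FPKM) and for Il6 (0.0794 FPKM, 13 counts), and it also had the highest Bcl3 of all mice (3.55 FPKM). Ctrl replicate 2 was high for Tnf (0.277 FPKM, 39 counts).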

How the results depend on the processing

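Of 807 values of the 30 member results under the alternatives, 760 kept their direction and their side of the threshold. In PBS versus Ctrl, 2 members were called, 1 to 3 with 1 mouse left out, 4 with DESeq2 (Il1b and Nfkbiz in addition) and 1 with limma at either pseudocount, with only the 2 groups compared or with FLX replicates 1 and 2 only. Nfkbia was called in all 27 alternatives (adjusted p from 3.15e-06 to 0.0154). In FLX versus PBS, 0 members were called, 0 to 1 with 1 mouse left out, and 3 by DESeq2 or the study's threshold. The cause of these changes was not tested. Signs turned for differences near 0. Over 17 mice these were Icam1 (-0.0076) and Bcl3 (-0.12) in PBS versus Ctrl and Bcl3 (0.17) in FLX versus PBS. With 1 mouse left out, Icam1 in PBS versus Ctrl went from -0.0076 to 0.32 and Bcl3 from -0.12 to 0.22, Bcl3 in FLX versus PBS went from -0.26 to 0.17, and in FLX versus Ctrl Il1b went from -0.11 to 0.32, Socs3 from -0.13 to 0.13, Nfkbiz from -0.079 to 0.12 and Bcl3 from -0.16 to 0.13. Bcl3 in FLX versus PBS was 0.063 and 0.037 with limma at pseudocounts 0.1 and 1, and Il1b in FLX versus Ctrl was -0.00049 with upper-quartile scaling. With FLX replicates 1 and 2 only, FLX versus Ctrl gave -0.028 for Il1b, -0.29 for Socs3, -0.19 for Nfkbiz and -0.13 for Bcl3.

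With the replicate number as a block, 1 member was called in PBS versus Ctrl and 0 in both other comparisons, Socs3 was -0.040 in FLX versus Ctrl, and 539, 48 and 99 genes were called in PBS versus Ctrl, FLX versus PBS and FLX versus Ctrl, against 853, 111 and 354 without the block. The numbers did not pair the mice, since in 6 of 36 combinations of a mouse and another group the best-correlated mouse had the same number. In the same order, 1629, 526 and 1047 genes were called by DESeq2, 834, 255 and 716 by limma on log2(FPKM + 0.1), 591, 69 and 162 without a filter, 343, 10 and 717 in fits of 2 groups, and 486, 0 and 2 with FLX replicates 1 and 2 only, the last with 4 mice fewer. With 1 mouse left out the ranges were 432 to 1724, 33 to 192 and 68 to 2103, the highest always without Ctrl replicate 3. Depth limits Il6 and Tnf, at 0 to 57 counts a mouse.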
